A study of Mus musculus with 2 samples.

Results

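Focal adhesion plaque proteins were examined as a group of 10 genes, *Tln1*, *Vcl*, *Flna*, *Actn1*, *Fermt2*, *Ptk2*, *Pxn*, *Ilk*, *Parva* and *Zyx*, in RNA sequencing of mouse primary chondrocytes. The members were taken by gene symbol, with earlier results of these data known, and all 10 were found among the 22156 genes of the deposited table.

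Focal adhesions are the sites at which a cell grips the extracellular matrix. Integrins span the membrane and bind matrix proteins outside, and a layered plaque of cytoplasmic proteins joins their tails to actin filaments inside. Talin and kindlin bind the integrin tail and switch the receptor on, vinculin, alpha-actinin and filamin tie it to actin, and focal adhesion kinase with paxillin passes signals on. Chondrocytes spread on plastic as a monolayer build such contacts, which are known to be sensitive to the tension that myosin puts on actin.

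To see how gene expression differs when MYL3 is missing, the study sequenced a single library of each genotype, control and *Myl3*-KO, made from rib cartilage chondrocytes of newborn mice on the C57BL/6J background that were kept as a monolayer without treatment. *Myl3*-KO mice carry floxed *Myl3*, a myosin light chain gene, and Cre driven by the promoter of *Col2a1*, which is active in cartilage cells. The controls were floxed littermates without Cre by the methods of the study, and the labels give them as WT. Whether several animals were pooled in a culture was not given in the sources used here.

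With 0 counts of *Myl3* in either library, the labels could not be checked against the gene that was deleted. The comparison is thus one of genotype labels and not of measured *Myl3* transcript. The libraries held 17612435 and 13477977 expected counts (estimated reads per gene) in control and *Myl3*-KO. Of 13 chondrocyte markers found, *Acan*, *Matn1*, *Matn3*, *Hapln1* and *Cnmd* were at 0 in each library, *Col2a1* was at 30 and 27 counts, and the list summed to 16.7 and 16.1 FPKM, most of it *Sox9*. Within these sums *Sox9* was lower in *Myl3*-KO (log2 ratio -0.47) and *Col11a2* higher (0.82). The 12 fibroblast markers summed to 7856 FPKM in control and 9150 in *Myl3*-KO, but were uneven in level. *S100a4* (3046 and 3194 FPKM), *Col1a2* (2253 and 2630) and *Vim* (1449 and 2027) were the highest of them. *Thy1* was at 0 counts in each library, *Dpt* at 5 and 2 counts and *Pdgfra* at 120 and 140. *Fn1* (log2 ratio 0.55) and *Vim* (0.49) were higher and *Dcn* (-1.64) and *Lum* (-1.36) lower in *Myl3*-KO. Muscle markers summed to 0.21 and 0.15 FPKM, immune markers to 3.21 and 3.06, endothelial markers to 0.29 and 0.45 and erythroid markers to 0 and 0.11. The part of these markers in the results on plaque genes was not tested, and in bulk RNA fewer cells of a type and less RNA per cell cannot be told apart.

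Counts were scaled to a library total of 1000000 (CPM), and each difference is a log2 ratio, *Myl3*-KO divided by control, with a 95% Clopper-Pearson interval. An exact binomial test compared the reads of each gene between the 2 libraries, with Benjamini-Hochberg adjustment over the 12431 genes with at least 10 counts. This test compares these libraries and not the genotypes, and intervals cover counting error only. A gene whose log2 ratio reached 0.5 in either direction was taken as past the fold.

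The plaque genes differed unevenly and by less than the fold, with a median above that of genes of like depth. None of the 10 was past the fold, against 11.7% of all genes tested (7.99% higher and 3.75% lower). Of the 3946 genes with a mean of at least 1000 counts, a depth that all 10 members reached, 1.82% were past it, 1.14% higher and 0.684% lower. Of the members, 7 had a higher level in the *Myl3*-KO library beyond counting error and 1 a lower level, while *Ptk2* and *Pxn* did not pass the exact binomial test. That test passed 35.4% of all genes, 18.6% higher and 16.8% lower, and 58.6% of genes at this depth, 25.6% higher and 33.0% lower, so passing it says little by itself. The median log2 ratio of the members was 0.27, against 0.02 over all genes tested and -0.02 over genes of like depth, for which the middle 90% lay between -0.33 and 0.32. At a smaller limit of 0.25, 5 members were higher and 0 lower, beside 20.2% higher and 14.1% lower of all genes, and 8.79% higher and 11.2% lower at like depth.

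**Figure D1:**
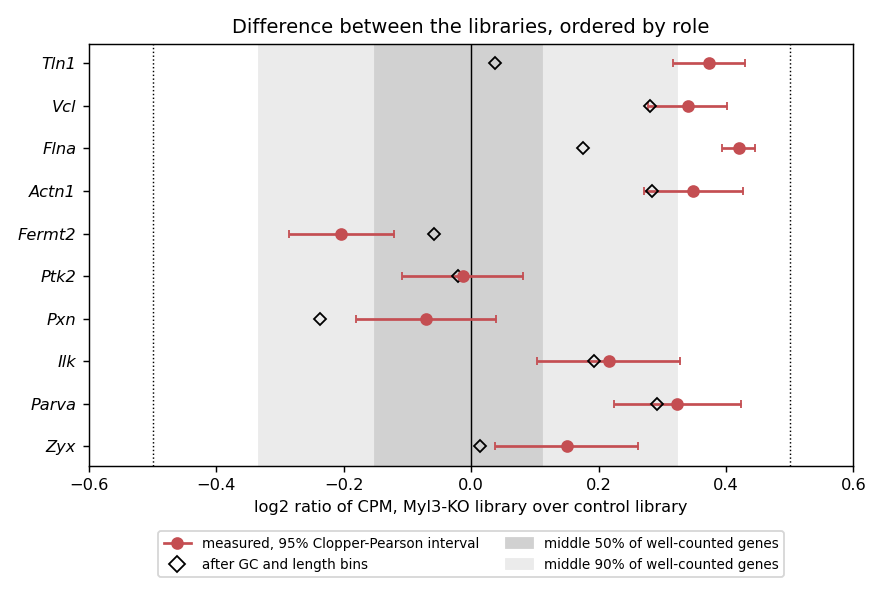
Log2 ratio of CPM in the Myl3-KO library over the control library (x axis) for the 10 plaque genes, ordered by role, with 95% Clopper-Pearson intervals. Open diamonds show the ratio after the median of genes of like GC content and transcript length was subtracted, grey bands the middle 50% and 90% of the 3946 genes with a mean of at least 1000 counts, and dotted lines the limit of 0.5. *Flna*, *Tln1*, *Actn1* and *Vcl* lie furthest to the right, and *Fermt2* lies on the other side of 0.

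Transcripts of *Flna*, *Tln1*, *Actn1* and *Vcl*, grouped with the values known as force carriers between integrin and actin, were higher in the *Myl3*-KO library. After the median of genes of like GC content and length was subtracted, as described further on, their log2 ratios were 0.28 for *Vcl*, 0.28 for *Actn1*, 0.17 for *Flna* and 0.04 for *Tln1*, so they were alike before this correction and not after it. *Flna* (ENSMUSG00000031328, GRCm38 chromosome X from 74223461 to 74249820) encodes filamin A, a large actin crosslinker that also binds integrin tails. Its 22909 control counts and 23453 *Myl3*-KO counts correspond to 1301 and 1740 CPM. Its level was thus 33.8% higher in *Myl3*-KO, with the log2 ratio at 0.42 (95% interval 0.39 to 0.45, adjusted exact binomial p = 7.84e-212). Among genes of like depth, 2.13% had a ratio as high or higher.

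*Tln1* (ENSMUSG00000028465, chromosome 4 from 43531519 to 43562691) encodes talin 1, the rod that links the integrin beta tail to actin and unfolds under tension. It went from 288 to 373 CPM, a log2 ratio of 0.37 (95% interval 0.32 to 0.43, adjusted exact binomial p = 1.72e-36). *Actn1* (ENSMUSG00000015143, chromosome 12 from 80167547 to 80260371) encodes alpha-actinin 1, which bundles actin filaments and binds integrin and vinculin. Its 155 and 197 CPM gave a log2 ratio of 0.35 (95% interval 0.27 to 0.43, adjusted exact binomial p = 3.71e-17). The intervals of these genes overlap each other, so the counts do not order *Tln1* and *Actn1*.

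*Vcl* (ENSMUSG00000021823, chromosome 14 from 20929398 to 21033676) encodes vinculin, which is recruited to stretched talin and reinforces its hold on actin. Its control level of 246 CPM and its *Myl3*-KO level of 311 gave a log2 ratio of 0.34 (95% interval 0.28 to 0.40, adjusted exact binomial p = 1.36e-25). The gene runs into *Ap3m1* on the opposite strand, and 25.3% of the 31-base words of its transcripts also occur there. *Ap3m1* had a log2 ratio of -0.08. With the counts of both genes summed the log2 ratio was 0.18 (95% interval 0.13 to 0.23), so the sum was higher too, by less than *Vcl* alone. Summed over *Flna*, *Tln1*, *Actn1* and *Vcl*, the log2 ratio was 0.40 (95% interval 0.38 to 0.42), to which *Flna* gave most of the counts.

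The kindlin gene was lower in the *Myl3*-KO library, and after the same correction it was nearer to 0, at -0.06. *Fermt2* (ENSMUSG00000037712, chromosome 14 from 45458795 to 45530118) encodes kindlin-2, which binds the integrin beta tail beside talin and helps to activate the receptor. Its counts were 3020 in the control library and 2007 in the other, or 171 and 149 CPM. The log2 ratio was -0.20 (95% interval -0.29 to -0.12, adjusted exact binomial p = 8.34e-06), and 16.9% of the genes of like depth had a ratio as low or lower. The level of *Tln1* relative to *Fermt2*, per length on the FPKM scale, was 0.640 in control and 0.946 in *Myl3*-KO. After the correction for GC content and length their log2 ratios were 0.04 and -0.06, which leaves little of this shift.

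The measured log2 ratios of *Vcl* and *Fermt2* were 0.34 and -0.20, and after correction for GC content and length 0.28 and -0.06. Promoter sequence is shown for both because of this difference and because no other member with a promoter window holds a CArG box. This motif is bound by the serum response factor SRF, a regulator known for genes of the actin cytoskeleton. RefSeq promoter windows on GRCm38.p6, running from 250 bases before the start to 50 after it, were at hand for 7 of the 10 members, and *Ptk2*, *Pxn* and *Parva* had none. The motif reads alike on both strands and occurred in 2 of the 8 member windows (*Ilk* has 2), against 1.63% of all 32851 windows of 300 bases. The stretches below are given 5′ to 3′ on the strand of the gene, with the CArG box in capitals. They lie at chr14:20929148-20929205 on the plus strand for *Vcl* and at chr14:45530235-45530294 on the minus strand for *Fermt2*.
*Vcl*: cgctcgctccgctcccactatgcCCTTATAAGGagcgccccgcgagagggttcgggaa
*Fermt2*: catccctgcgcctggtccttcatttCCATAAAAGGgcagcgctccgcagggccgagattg
The box lies 227 to 218 bases before the start in *Vcl* and 204 to 195 bases before it in *Fermt2*. A match describes these letters and is not a shown site. The windows of *Tln1*, *Zyx*, *Ilk*, *Actn1* and *Flna* hold no match, and that of *Flna* lies inside the locus given above, so another start of this gene was not searched.

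The signalling pair of the plaque did not pass the test, though *Pxn* was at -0.24 after the correction for GC content and length. *Ptk2* (ENSMUSG00000022607, chromosome 15 from 73205102 to 73423280) encodes focal adhesion kinase, the tyrosine kinase that integrin binding activates. Its levels of 118 CPM in control and 117 in *Myl3*-KO gave a log2 ratio of -0.01 (95% interval -0.11 to 0.08, adjusted exact binomial p = 0.887). *Pxn* (ENSMUSG00000029528, chromosome 5 from 115506676 to 115555987) encodes paxillin, the adaptor on which the kinase and its substrates assemble. Its 91.2 and 86.9 CPM gave a log2 ratio of -0.07 (95% interval -0.18 to 0.04, adjusted exact binomial p = 0.350). The pair as a sum had a log2 ratio of -0.04 with an interval of -0.11 to 0.03, which does not reach that of the force-carrying genes. This grouping by role was made with the values known.

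*Parva* and *Ilk* encode partners in a complex that binds integrin tails and actin. *Parva* (ENSMUSG00000030770, chromosome 7 from 112427505 to 112591692) encodes alpha-parvin, an actin-binding protein. With 94.0 CPM in control and 118 in *Myl3*-KO, it had a log2 ratio of 0.32 (95% interval 0.22 to 0.42, adjusted exact binomial p = 3.12e-09). The FPKM values of *Parva*, 22.9 and 27.6, imply a transcript length of 4108 bases in control and 4259 in *Myl3*-KO, the largest shift among the members, and gave a log2 ratio of 0.27.

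*Ilk* (ENSMUSG00000030890, chromosome 7 from 105736592 to 105742925) encodes integrin-linked kinase, which holds parvin and the LIM protein PINCH at the integrin tail. It was at 78.5 CPM in control against 91.2 in *Myl3*-KO, which gave a log2 ratio of 0.22 (95% interval 0.10 to 0.33, adjusted exact binomial p = 0.000847). This value is uncertain, because 78.4% of the 31-base words of its transcripts also occur in transcripts of other genes, mostly *Taf10*. The counted genes that overlap *Ilk* are *Taf10* and *Rrp8*, both on the opposite strand. The strand setting of the counting was not given in the sources used here. *Taf10* (log2 ratio -0.15) and *Rrp8* (-0.33) were lower in *Myl3*-KO, and the 3 genes summed had a log2 ratio of -0.01 (95% interval -0.09 to 0.07).

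*Zyx* (ENSMUSG00000029860, chromosome 6 from 42349630 to 42360213) encodes zyxin, a LIM protein that enters adhesions and stress fibres under tension. From 79.9 CPM in control and 88.7 in *Myl3*-KO its log2 ratio was 0.15 (95% interval 0.04 to 0.26, adjusted exact binomial p = 0.0271). With TMM scaling the ratio was 0.13 and the adjusted exact binomial p 0.0568, and with DESeq2 size factors they were 0.13 and 0.0705, so *Zyx* did not pass under either.

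**Figure D2:**
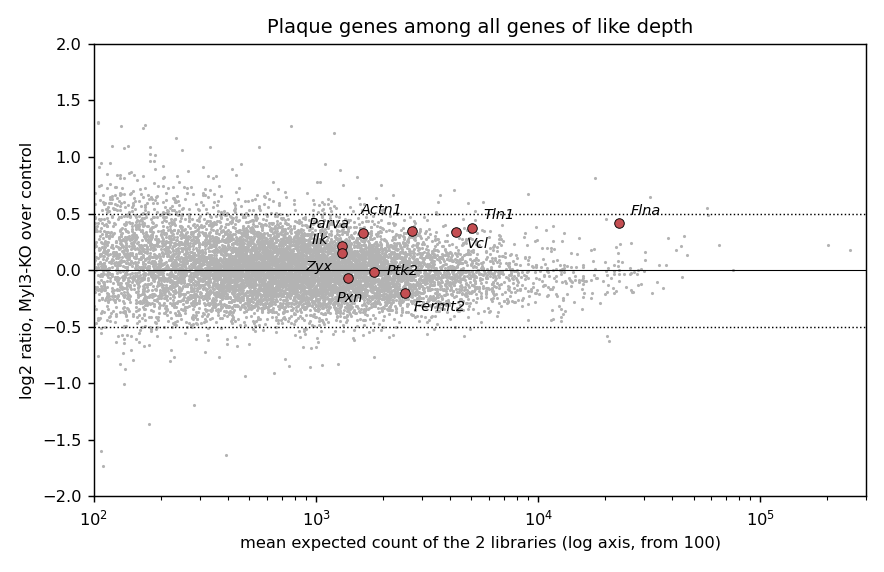
Log2 ratio of the Myl3-KO library over control (y axis) against the mean expected count of both libraries (x axis, log scale, from 100) for 9758 genes in grey, with 1 further gene beyond the y axis, and the 10 plaque genes in red. Dotted lines mark 0.5 in either direction, which no plaque gene crosses, and *Flna* stands out by its count.

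Transcript length and GC content moved with the ratio over all genes and differ between the members. Among genes of like depth, the median log2 ratio went from -0.11 in the fifth with the shortest transcripts to 0.06 in the fifth with the longest, and from -0.12 at the lowest GC content to 0.08 at the highest. *Tln1* and *Flna* have the longest transcripts of the members, 8393 and 8456 bases, with 57.0% and 54.0% GC. After the median of each bin of like length and GC content was subtracted, a step chosen after seeing the data, the log2 ratio was 0.04 for *Tln1* and 0.17 for *Flna*. *Vcl* (0.28), *Actn1* (0.28), *Parva* (0.29) and *Ilk* (0.19) kept most of their difference, *Zyx* (0.01) and *Fermt2* (-0.06) came near 0, *Ptk2* was at -0.02 and *Pxn* was lower at -0.24. The median of the members was then 0.11. The share of the differences that is due to length or GC content was not tested further.

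In level, filamin A stood far above the rest of the plaque. FPKM values, which scale reads by gene length, were 157 in control and 211 in *Myl3*-KO for *Flna*, while the other 9 members lay between 22.9 and 53.6 in control and between 25.8 and 59.1 in *Myl3*-KO. In control the order after *Flna* was *Fermt2* (53.6), *Vcl* (46.7), *Ilk* (44.0), *Actn1* (42.6), *Zyx* (37.0), *Tln1* (34.3), *Ptk2* (29.6), *Pxn* (27.1) and *Parva* (22.9). Neighbours whose Poisson intervals overlapped were *Vcl* with *Ilk*, *Ilk* with *Actn1*, *Zyx* with *Tln1* and *Ptk2* with *Pxn*.

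In *Myl3*-KO the order after *Flna* was *Vcl* (59.1), *Actn1* (55.1), *Ilk* (51.1), *Fermt2* (47.0), *Tln1* (44.5), *Zyx* (41.1), *Ptk2* (29.2), *Parva* (27.6) and *Pxn* (25.8). *Fermt2* thus went from place 2 to place 5, and *Pxn* from place 9 to 10. All neighbours from *Actn1* to *Zyx* overlapped in this library, as did those from *Ptk2* to *Pxn*. The ratio of *Flna* to *Pxn* on this scale was 5.79 in control and 8.16 in *Myl3*-KO. The 10 members together summed to 495 FPKM in control and 591 in *Myl3*-KO.

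**Figure D3:**
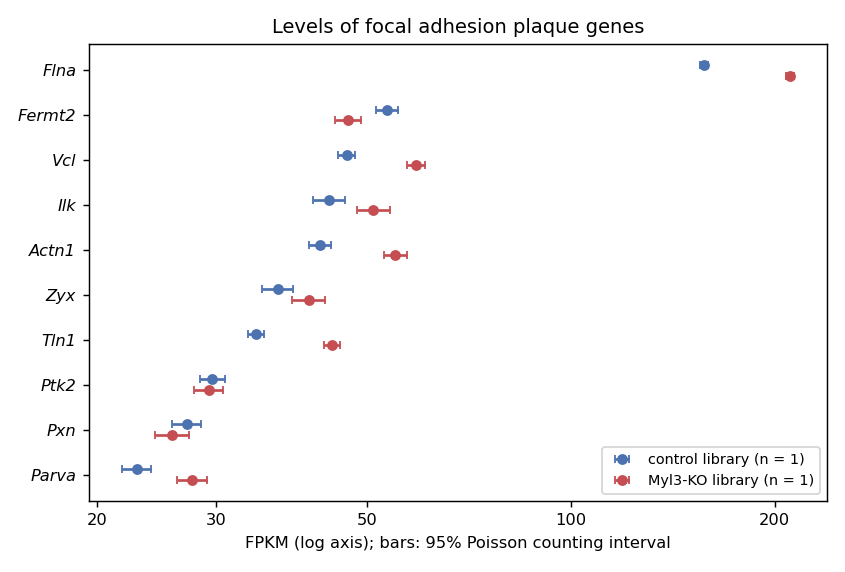
FPKM of the 10 plaque genes (x axis, log scale) in the control library (blue) and the Myl3-KO library (red), ordered by the control level, with 95% Poisson intervals of the counts. Intervals of the libraries lie apart for *Flna*, *Vcl*, *Actn1*, *Tln1*, *Parva*, *Ilk* and *Fermt2*, and overlap for *Zyx*, *Ptk2* and *Pxn*.

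In the kindlin, parvin, talin, FAK and paxillin families the member was the main form in these cells. *Fermt2* made up 98.8% of the kindlin FPKM in control and 98.7% in *Myl3*-KO, since *Fermt1*, the epithelial kindlin, had 0 counts and *Fermt3*, that of blood cells, 30 and 21. *Parva* was 96.1% and 95.9% of the parvins. *Tln1* was 80.1% of talin in control and 83.1% in *Myl3*-KO, beside *Tln2* at 8.52 and 9.03 FPKM (log2 ratio 0.08). *Flnc*, a paralogue of *Flna*, had 33.7 FPKM in control and 37.9 in *Myl3*-KO (log2 ratio 0.17).

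Alpha-actinin and the zyxin family were shared between genes. *Actn4*, the other non-muscle alpha-actinin, exceeded *Actn1*, at 68.7 FPKM in control and 70.7 in *Myl3*-KO. Its log2 ratio was 0.03, so the share of *Actn1* went from 38.2% to 43.8%. The muscle forms had 0 counts for *Actn2* and 13 and 5 for *Actn3*. *Zyx* held 39.8% and 40.0% of its family, with *Trip6* (log2 ratio 0.12) and *Lpp* (0.29) the rest.

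In the paxillin and FAK families a paralogue was higher beyond counting error, which the member was not. *Tgfb1i1*, which encodes the paxillin relative Hic-5, went from 209 to 249 counts, or 6.33 to 9.95 FPKM. Its log2 ratio was 0.64 (95% interval 0.37 to 0.91, adjusted exact binomial p = 1.89e-05). Of the 12 paralogues tested it was the 1 higher past the fold, a share of 8.33% beside 7.99% of all genes tested, and *Actn3* was the 1 lower past it, beside 3.75%, at -0.99 from 13 and 5 counts (95% interval -2.83 to 0.59). *Pxn* went from 80.3% to 71.3% of the family, while *Lpxn* had 10 counts in each library. *Ptk2b*, which encodes the kinase PYK2, went from 341 to 351 counts, a log2 ratio of 0.43, and *Ptk2* from 86.0% to 80.6% of its family. The interval of *Tgfb1i1* does not overlap that of *Pxn*, which is a comparison of counting error within these libraries.

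**Figure D4:**
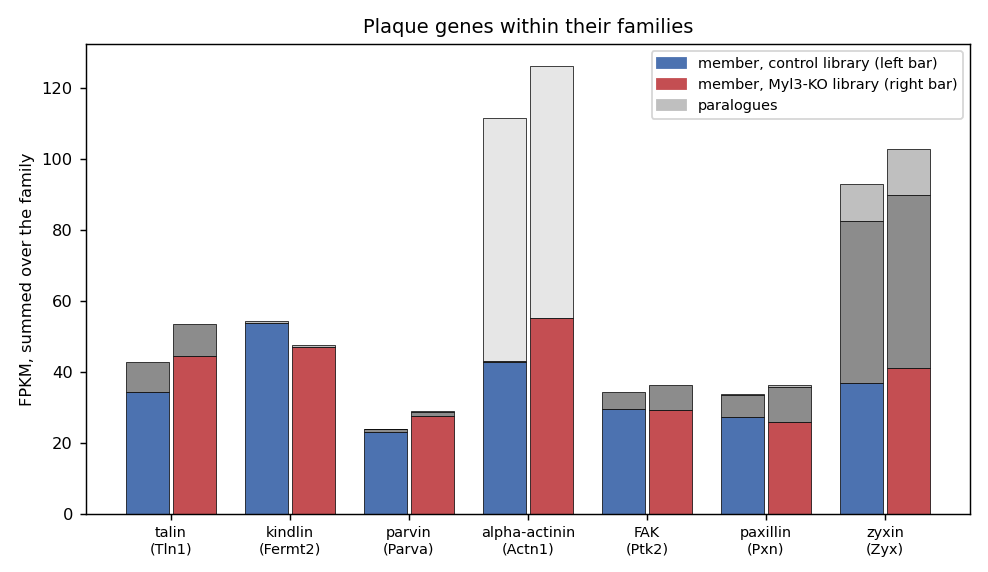
FPKM summed over each of the families of talin, kindlin, parvin, alpha-actinin, FAK, paxillin and zyxin (y axis) in the control library (left bars) and the Myl3-KO library (right bars), with the plaque gene coloured and its paralogues in grey. *Fermt2* and *Parva* fill their bars almost alone, while *Actn1* and *Zyx* are less than the rest of their families.

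The partners of the plaque were read from lists of known components. Of 18 signalling and scaffold partners, all were tested, with a median log2 ratio of 0.07. Past the fold 1 was higher, *Arhgef6*, an exchange factor of the paxillin-binding GIT complex, with 138 and 151 counts (log2 ratio 0.52), and 0 were lower, against 7.99% higher and 3.75% lower of all genes tested. The most abundant, *Rsu1* and *Lims1*, which encode partners of integrin-linked kinase, and the adaptor gene *Grb2*, had log2 ratios of 0.03, -0.04 and 0.07. Of 26 genes of the actin side and LIM proteins, 22 were tested with a median of 0.12, of which 4 were higher past the fold and 0 lower. Among them were the tensins *Tns1* (0.54) and *Tns2* (0.57), which bind integrin tails and actin, and *Svil* (0.58), which encodes supervillin, a protein that binds myosin and actin. *Pdlim7*, *Palld* and *Csrp2*, the most abundant of this list, had log2 ratios of 0.11, -0.07 and -0.19.

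Among the receptors, 13 integrin genes were listed and 12 tested, with 6 higher past the fold and 0 lower, beside 7.99% and 3.75% of all genes tested. Of these 6, *Itgb5* alone had at least 100 counts. It encodes the beta5 chain of a vitronectin receptor and went from 95.9 to 146 FPKM (log2 ratio 0.60, 95% interval 0.55 to 0.66), whereas *Itgb1*, the most abundant chain and the partner of most alpha chains, had 285 and 266 FPKM (log2 ratio -0.10) and *Itga5*, its fibronectin-binding partner, a log2 ratio of 0.15. Of 19 genes of the SRF and MRTF pathway and of actin, 15 were tested and 0 were past the fold, against 11.7% of all genes tested, with a median of 0.17. Of the 15, 11 had a mean of at least 1000 counts, a depth at which 1.82% of genes were past the fold. The median of these 11 was 0.21, against -0.02 over genes of like depth. Beyond counting error 8 of the 15 were higher and 0 lower, beside 18.6% and 16.8% of all genes tested. Among genes with a mean of at least 1000 counts these shares were 25.6% and 33.0%, so passing says little by itself. The actin genes *Actg1* and *Actb* had log2 ratios of 0.28 and 0.24, *Tpm1*, a tropomyosin gene, one of -0.01, and *Srf* itself one of -0.10 (adjusted exact binomial p = 0.322).

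**Figure D5:**
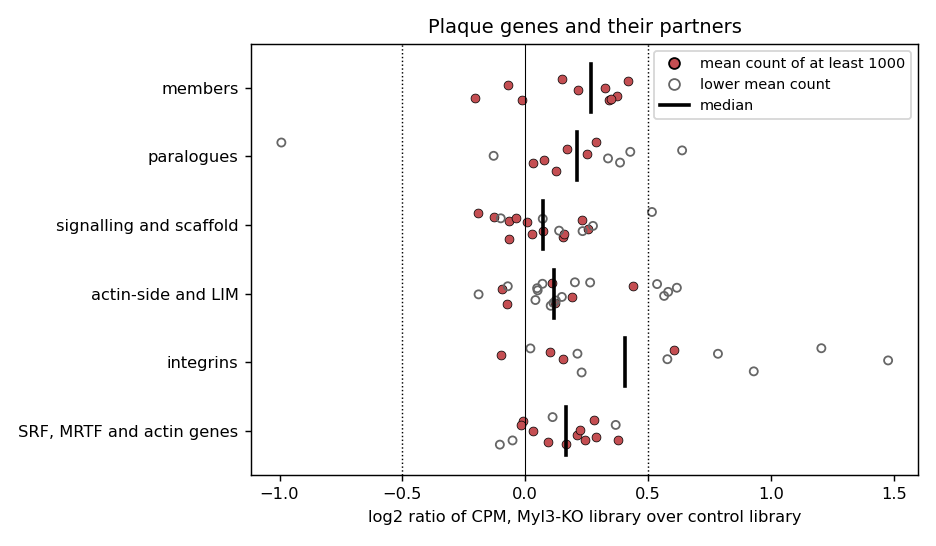
Log2 ratio of the Myl3-KO library over control (x axis) for each tested gene of the member list and of 5 lists of partners (rows), with filled points for genes with a mean of at least 1000 counts and bars for medians. The members have a median of 0.27 and no point past the dotted lines at 0.5, while integrins past them are mostly weakly counted genes.

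The KEGG term Focal adhesion, as the authors annotated genes in their table, was carried by 9 of the 10 members and not by *Fermt2*. Of the other 188 genes with this term 146 were tested, of which 31 were higher past the fold and 3 lower, beside 7.99% and 3.75% of all genes tested, with a median log2 ratio of 0.13. Those higher were mostly matrix ligands and integrins. In a split chosen after the values were seen, 13 of 29 matrix ligands and 10 of 16 integrins were higher past the fold, against 8 of the 101 other genes, which is 7.92%. The parts differ in depth, with 13 matrix ligands, 4 integrins and 52 other genes at a mean of at least 1000 counts. The median log2 ratios of these were 0.15, 0.13 and 0.04. The highest ratios among genes with at least 100 counts were those of *Ccnd1* (1.09), *Col6a2* (0.81), *Itga2b* (0.72), *Pdgfrb* (0.71) and *Pik3cd* (0.68). *Ccnd1* encodes cyclin D1, which drives entry into the cell cycle, and *Col6a2* a collagen VI chain. The lowest were the tenascin genes *Tnn* (-0.77) and *Tnc* (-0.44), followed by *Cav2* (-0.41), *Vegfa* (-0.30) and *Ccnd3* (-0.29). With at least 100 counts in each library, 12 of 108 genes were higher past the fold and 1 lower, beside 2.76% higher and 0.856% lower of the 9582 genes at this depth.

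No difference given here has a replicate check. With an assumed coefficient of variation of 0.1 between cultures, edgeR's exact test gave *Flna* an unadjusted p of 0.0407 and an adjusted p of 0.720, and 0 of the 10 members passed after adjustment, while 61 of the 12431 genes tested did.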

How the data were processed

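The authors deposited an expected count and an FPKM value per gene for 1 control and 1 *Myl3*-KO library. The expected counts are not normalized, and the FPKM values are scaled by gene length and library by the authors. The methods describe oligo-bead mRNA enrichment and an Illumina NovaSeq, the labels a SMARTER kit. The submitters' processing notes name GRCm38 and mm10. The aligner, counting tool and strand setting were not given in the sources used here. The control columns are headed NC, read as control because the others are headed KO.

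Ratios used unrounded counts, with counts under 3 raised to 3. Counts were rounded for the exact binomial test and the Clopper-Pearson and Poisson intervals. At 17612435 and 13477977 counts, 3 counts are 0.170 and 0.223 CPM. The test covered genes whose counts summed to at least 10. Loci and transcripts came from GENCODE M21. The procedure was tested on simulated data. With 1 library a group, no fit with an estimated spread was possible. Alternatives were TMM, DESeq2 size factors, other filters and limits, 1 added count, FPKM ratios, edgeR's exact test with a preset variation, and correction for GC content and length. The members and lists were chosen with earlier results of these data known. Genes named are the members, *Myl3*, their paralogues, marker genes, list genes past the fold with at least 100 counts or among the 3 of highest FPKM, and the 5 highest and 5 lowest KEGG genes. *Srf* and the genes overlapping a member were added after their values were seen. Results of some paralogues and partners, and the share of *Flna* in its family, are not reported here. Tools were Python 3.11.15, scipy 1.17.1, R 4.3.3, edgeR 4.0.16 and DESeq2 1.42.0.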

Additional observations from a re-analysis of the deposited data

How the results depend on the processing

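None of the 10 members passed a log2 ratio of 0.5 under any of the scalings, filters or corrections tried, nor a limit of 1, while a limit of 0.25 gave 5. Their median was 0.25 with TMM scaling, 0.25 with DESeq2 size factors, 0.24 with the FPKM ratio and 0.11 after correction for GC content and length. The count beyond counting error was 8, and 7 with TMM or DESeq2 size factors, where *Zyx* was lost. With edgeR's exact test and a preset coefficient of variation of 0.1, 0.2 or 0.4 it was 0, since that test assumes a spread between cultures. *Ilk* summed with the genes that overlap it reversed to -0.0094. Other members kept their direction in every alternative. The 31 higher KEGG Focal adhesion genes became 12 with at least 100 counts in each library, 8 at a limit of 1 and 21 after the correction for GC content and length. The 3 lower ones became 1 with at least 100 counts in each library and 0 at a limit of 1. They became 5 with the FPKM ratio or after the correction for GC content and length. The cause was not tested. No paired analysis was possible because each genotype has 1 library. Depth limits the weakly counted paralogues and integrins. The members are limited by the lack of replicates, by GC content and length, and, for *Ilk* and *Vcl*, by overlapping genes.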

Other observations

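Other actin-linked KEGG pathways of the deposited table were counted without the 10 members, a step chosen after seeing the data. Of 155 tested genes of regulation of actin cytoskeleton, 23 were higher past a log2 ratio of 0.5 and 3 lower, with a median of 0.08. Adherens junction had 5 higher and 0 lower of 61, with a median of 0.12, and tight junction 11 and 2 of 116, with a median of 0.05. Over all genes tested these shares were 7.99% higher and 3.75% lower. Genes that also carry the Focal adhesion term were not removed. Among genes with a mean of at least 1000 counts the medians of the 3 pathways were 0.05, 0.05 and 0.03, against -0.02 over all genes of this depth.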
